A study of Ictidomys tridecemlineatus with 31 samples.

Results

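The unfolded protein response is the program by which a cell adjusts the folding capacity of its endoplasmic reticulum (ER). Sensors in the ER membrane, among them ATF6, IRE1, and PERK, are held inactive by the chaperone BiP and are released when unfolded proteins accumulate. ATF6 is then cut to a transcription factor, IRE1 splices the Xbp1 mRNA, and both raise the transcription of chaperones, disulfide isomerases, and degradation factors, while PERK slows translation and acts through ATF4. In the kidney these genes serve the tubule cells, which make large amounts of membrane transporters and secreted proteins.

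The 10 genes described here are Atf6, Xbp1, Hspa5, Hsp90b1, Dnajb9, Sdf2l1, Pdia4, Pdia6, Calr, and Herpud1, all of them found by symbol among the 12863 genes of the deposited table. They were measured by RNA-seq in kidneys of 31 13-lined ground squirrels (Ictidomys tridecemlineatus) in 6 states. SA are summer active animals (n = 5). SpD are spring dark animals, warm again after the hibernation season but still kept in the dark (n = 5). The other groups come from the torpor-arousal cycle, in which Ent animals were cooling into torpor (n = 5), EAr animals were at an early, still cold stage of arousal (n = 5), LAr animals were further along in rewarming (n = 6), and IBA animals were warm between bouts of torpor (n = 5). Both sexes were in every group, 17 females and 14 males, and all carried implanted temperature recorders and were perfused before dissection. Libraries of 9 animals (3 IBA, 3 Ent, and 3 SpD) were made with the TruSeq kit in experiment 1. Those of the other 22 were made with the Nugen kit in experiment 2, so all SA, EAr, and LAr animals share the second kit. The experiments also differed in sequencing site and instrument.

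Values are batch-corrected rlog, a log2 scale on which shrunken normalized counts are comparable between animals for a gene but not between genes of different length. Median values per animal lay between 9.74 and 9.88, and sequencing depth is unknown. Kidney markers were high throughout, with Lrp2 of the proximal tubule and Slc12a1 of the loop of Henle both averaging at least 14.56 in every state. K113 (LAr) and K137 (SA) were kept out of the comparisons, as they were in the study after they clustered apart. The comparisons therefore rest on 29 animals. The paper calls both extreme in apparent cell type makeup and proposes that they were timing variants, ahead of their groups. Neither reading was tested here. The values of K113 and K137 are given apart, and the calls across states were repeated with all 31. K130 (SpD) stood apart in the same regional kidney markers as both of them but was kept. The test was limma with state, sex, and experiment as terms, so that a fitted difference is adjusted for sex and experiment and need not equal the difference of the state means. A gene was DE at q below 0.001, the threshold of the study, and calls at q below 0.05 are given beside it. The study applied its threshold to a likelihood ratio test in DESeq2 on uncorrected counts. That test called a larger share of genes than limma did here, so a gene not DE here may be DE there. In whole kidney, fewer cells of a type and less RNA per cell cannot be told apart.

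None of the 10 genes was DE across the 6 states, and 3 reached q below 0.05 in limma's F test. Over all genes the percentage DE was 9.34, and 46.1% reached q below 0.05. The 3 genes were Dnajb9 (q = 0.00157), Pdia4 (q = 0.00795), and Herpud1 (q = 0.0152), and 6 of the 10 had an unadjusted p below 0.05, against 7203 of all 12863 genes. With all 31 animals Dnajb9 and Herpud1 stayed below 0.05 (q = 0.00493 and q = 0.00979), whereas Pdia4 did not (q = 0.310). The difference between the highest and the lowest state mean ran from 0.22 (Calr) to 0.48 (Dnajb9) on the log2 scale, with a median of 0.31 against 0.32 for all genes. Across all 15 pairs of states, 13 of 150 gene by pair tests reached q below 0.05, against 14.1% of such tests over all genes, 1 of them was DE (1.62% over all genes), and no 95% interval reached beyond 0.78 in either direction. When the state means of each gene were put in order, 1 of 50 neighboring pairs reached q below 0.05, IBA and EAr for Herpud1, against 1.6% over all genes.

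**Figure D1:**
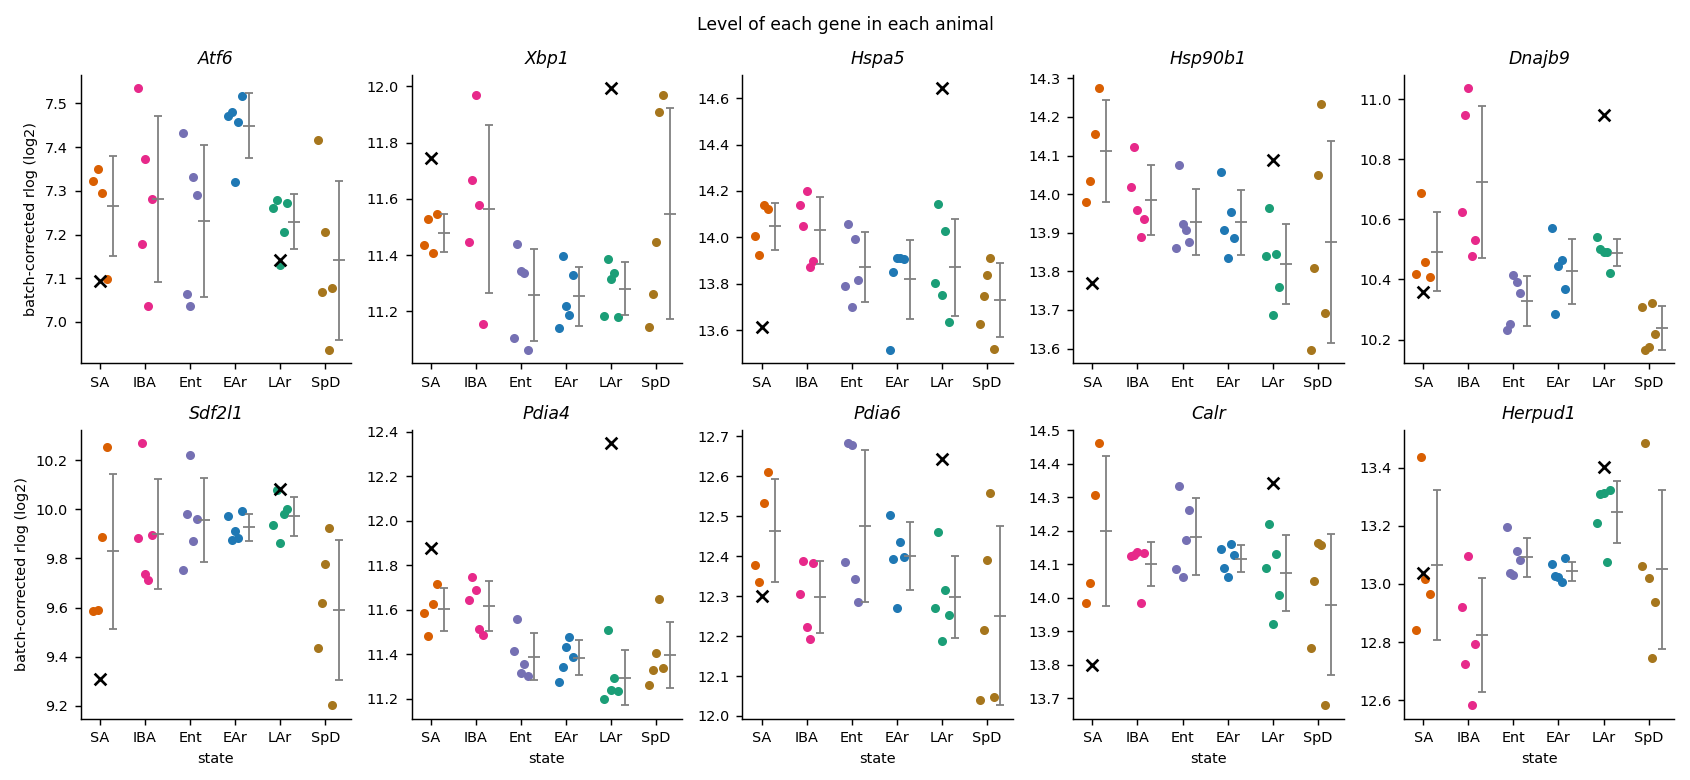
Level of each gene (panels; batch-corrected rlog, log2 scale, axes differ between panels) in each animal of the 6 states, with gray bars for the mean ± SD of the 29 animals. Crosses mark K113 (LAr) and K137 (SA), which are in no bar. Dnajb9 in SpD, 10.17 to 10.32, lies below every IBA animal, and K113 is the highest of all 31 animals for Xbp1, Hspa5, and Pdia4.

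Atf6 encodes the membrane-anchored sensor and transcription factor that is cut in the Golgi. Its row in the table was named through a human sequence match as an ATF6-like transcript, and its values were low, 6.94 to 7.54. The EAr animals held 7.46, 7.47, 7.48, and 7.52 with a single lower value of 7.32, whereas the SpD animals spread from 6.94 to 7.42 with a median of 7.08. Atf6 was thus highest in EAr and lowest in SpD, with a difference of 0.34 ± 0.10 (SE) between them (limma q = 0.0194; q = 0.102 without SpD animal K130). The groups overlapped in 1 SpD and 1 EAr animal, and EAr/IBA, its neighbor in the order of levels, had a q of 0.162. In EAr/SpD 6 of the 21 cell type markers differed at q below 0.05 (Nrp1, Kdr, Slc27a2, Aqp2, Atp6v0d2, and Mzb1), and their part in this result and in that of Sdf2l1 was not tested.

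Xbp1 encodes the transcription factor made active by IRE1, and gene-level values do not separate its spliced from its unspliced mRNA. In IBA it measured 11.45, 11.67, 11.97, 11.58, and 11.16. In SpD it measured 11.15, 11.26, and 11.45 in the 3 animals of experiment 1, and 11.91 and 11.97 in the 2 animals of experiment 2 (K84 and K130). The 15 Ent, EAr, and LAr animals all lay between 11.06 and 11.44, a range shared by 2 SpD animals, 1 IBA animal, and 2 of the 4 SA animals (11.41, 11.44, 11.53, and 11.55). No pair of states reached q below 0.05. The widest, EAr/IBA, was -0.34 ± 0.15 (SE; limma q = 0.130), with a 95% interval from -0.65 to -0.02. Within experiment 2 alone, where SpD is K84 and K130, Xbp1 was DE across states (limma q = 0.000850) and lower by 0.68 in EAr than in SpD (q = 0.000235). The SpD to IBA difference had opposite signs in the experiments, -0.41 in experiment 1 (3 against 3 animals) and 0.57 in experiment 2 (2 against 2).

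Hspa5 encodes BiP, the principal Hsp70 chaperone of the ER and the standard readout of the response. Its state means were 14.05 ± 0.10 in SA (SD, n = 4), 14.03 ± 0.14 in IBA (n = 5), 13.87 ± 0.15 in Ent (n = 5), 13.82 ± 0.17 in EAr (n = 5), 13.87 ± 0.21 in LAr (n = 5), and 13.73 ± 0.16 in SpD (n = 5). Every SA animal, at 13.92 or more, lay above every SpD animal, at 13.91 or less. That difference, 0.36 ± 0.12 (SE), gave an unadjusted limma p of 0.00699 and q = 0.0574, and SpD/IBA gave -0.30 ± 0.10 with q = 0.060. No pair reached q below 0.05.

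Hsp90b1 encodes GRP94, the Hsp90 of the ER. The 4 SA animals measured 13.98, 14.03, 14.16, and 14.28, and the 5 LAr animals 13.69, 13.76, 13.84, 13.84, and 13.96. The groups did not overlap, and the level was lower in LAr by 0.30 ± 0.10 (SE; limma q = 0.0212; q = 0.208 with all 31 animals). Of all genes, 14.1% were without overlap in this direction between LAr and SA. Plasma cell markers moved in the same comparison: Jchain lay between 8.23 and 8.47 in LAr and between 10.34 and 12.65 in SA, and Mzb1 between 6.07 and 6.49 and between 7.18 and 8.15. Both were lower in LAr than in SA (limma q = 0.000118 and q = 0.000307), and their part in the result was not tested.

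Dnajb9 encodes ERdj4, a cochaperone of BiP and a target of XBP1. The 5 SpD animals measured 10.31, 10.17, 10.18, 10.32, and 10.22, and the 5 Ent animals 10.23, 10.25, 10.41, 10.39, and 10.35. In IBA the values were 10.62, 10.95, 11.04, 10.48, and 10.53. Every IBA animal was above every Ent and every SpD animal, and the means of SA, EAr, and LAr lay between, at 10.49, 10.43, and 10.49. Dnajb9 was 1.40-fold lower in SpD than in IBA (-0.48 ± 0.09 on the log2 scale, SE; limma q = 0.000733), the single DE call among the 10 genes. In that pair 1.25% of all genes were DE and 3.31% had all SpD animals below all IBA animals. The level was also lower in Ent than in IBA by 0.39 ± 0.09 (SE; limma q = 0.00461), a pair in which 4.51% of all genes had every Ent animal below every IBA animal. It was higher in LAr than in SpD by 0.30 (q = 0.0305), with q = 0.0820 without SpD animal K130. The SpD/IBA difference was -0.65 within experiment 1 and -0.23 within experiment 2. It kept its direction but was no longer DE in experiment 2 alone (-0.20, q = 0.181), with all 31 animals (q = 0.00352), and without any 1 of 13 of the 29 animals, for which q reached at most 0.00370. The Ent/IBA difference was -0.57 within experiment 1 and -0.13 within experiment 2, where its q was 0.612. None of the 21 cell type markers differed between Ent and IBA at q below 0.05. Between SpD and IBA 1 of 21 did, Atp6v0d2 of intercalated cells, higher in SpD. The other intercalated cell marker, Atp6v1g3, was lower in SpD but did not reach q below 0.05.

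Sdf2l1 encodes a small ER protein that works with the J-domain cochaperones of BiP. The LAr animals measured 9.94, 10.08, 9.86, 9.98, and 10.002, the EAr animals 9.97, 9.87, 9.91, 9.88, and 9.99, and the SpD animals 9.43, 9.62, 9.78, 9.93, and 9.20. SpD was the lowest group, with K84 alone reaching the range of LAr and EAr. Sdf2l1 was higher in LAr than in SpD by 0.44 ± 0.14 (SE; limma q = 0.0306) and higher in EAr than in SpD by 0.41 ± 0.14 (q = 0.0432). Without the SpD animal K130, the lowest, these gave q = 0.234 and q = 0.306. In LAr/SpD 7 of the 21 cell type markers also differed at q below 0.05. Among them were Aqp2 of collecting duct principal cells and Slc14a2 of the inner medulla, both lower in LAr. The other principal cell marker, Hsd11b2, was higher in LAr but did not reach q below 0.05. The part of these cells in the result was not tested.

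Pdia4 and Pdia6 encode protein disulfide isomerases of the ER. Pdia4 measured 11.64, 11.75, 11.69, 11.51, and 11.49 in IBA, 11.20, 11.51, 11.24, 11.29, and 11.23 in LAr, and 11.58, 11.48, 11.63, and 11.72 in SA. All but 1 of the LAr animals were below all of the IBA and SA animals. The level was higher in IBA than in LAr by 0.29 ± 0.08 (SE; limma q = 0.0187), lower in LAr than in SA by 0.31 ± 0.08 (q = 0.00641), and lower in Ent than in IBA by 0.23 ± 0.08 (q = 0.0484). Adding K113 and K137 took these to q = 0.646, q = 0.322, and q = 0.338. For Pdia6, with state means from 12.25 (SpD) to 12.47 (Ent), no pair reached q below 0.05.

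Calr encodes calreticulin, the calcium-binding lectin chaperone for glycoproteins. Its state means differed least among the 10 genes, at 13.98 ± 0.21 (SD, n = 5) in SpD, 14.07 ± 0.11 in LAr, 14.10 ± 0.07 in IBA, 14.12 ± 0.04 in EAr, 14.18 ± 0.11 in Ent, and 14.20 ± 0.22 in SA (n = 4). Its widest difference, SA/SpD, was 0.26 with a 95% interval from 0.04 to 0.48 and a limma q of 0.114.

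Herpud1 encodes HERP, an ER membrane protein of the complex that exports misfolded proteins for degradation. The IBA animals measured 12.92, 12.73, 13.10, 12.58, and 12.79, and the LAr animals 13.21, 13.31, 13.31, 13.07, and 13.32. IBA was the lowest and LAr the highest state, with 1 IBA animal above 1 LAr animal. The IBA/LAr difference was -0.54 ± 0.11 (SE; limma q = 0.00288), a level 1.45-fold lower in IBA, with q = 0.00211 in all 31 animals. The state means, 12.82 ± 0.20 (SD, n = 5) in IBA and 13.25 ± 0.11 (n = 5) in LAr, differed by less, 1.34-fold. Herpud1 was also lower in IBA than in SA by 0.36 (q = 0.0308) and higher in EAr than in IBA by 0.35 (q = 0.0378). The unadjusted means were 13.06 in SA and 13.04 in EAr, and these fitted differences are more than 1.5 times those of the means. Without the term for experiment EAr/IBA had q = 0.176. Both differences also depended on single animals, with q = 0.147 without SA animal K139 and q = 0.150 without IBA animal K104. Between IBA and LAr, 4 of 21 cell type markers differed at q below 0.05, among them the proximal tubule gene Slc27a2, lower in IBA, and Slc14a2, higher in IBA. Their part in the result was not tested.

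In the IBA/LAr comparison 2 of the 10 genes passed q below 0.05 in opposite directions (Pdia4 higher, Herpud1 lower in IBA), against 18% of all genes. In Ent/IBA 2 of 10 passed, both lower in Ent (13.1% of all genes in either direction), and in SpD/IBA, EAr/IBA, and IBA/SA 1 of 10 passed each (11.9%, 17.7%, and 22.9%). In EAr/SpD 2 of 10 passed (Atf6 and Sdf2l1), in LAr/SpD 2 (Dnajb9 and Sdf2l1), and in LAr/SA 2 (Hsp90b1 and Pdia4), against 19.2%, 19.1%, and 27.4% of all genes. In EAr/Ent and LAr/EAr none passed in limma, against 0.257% and 0.575% of all genes. Atf6 alone had an unadjusted p below 0.05 in either pair, as had 7.16% and 8.33% of all genes. Between hibernation (IBA, Ent, EAr, and LAr) and the active season (SA and SpD), 1 of 10 passed, Sdf2l1, higher by 0.23 in hibernation (limma q = 0.0307; 33.4% of all genes in either direction). Sdf2l1 did not pass in that comparison without SA animal K139 (q = 0.104). In it 7 of the 21 cell type markers were lower in hibernation at q below 0.05 (Nrp1, Kdr, Umod, Aqp2, Atp6v0d2, Jchain, and Mzb1), and their part in the result was not tested.

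**Figure D2:**
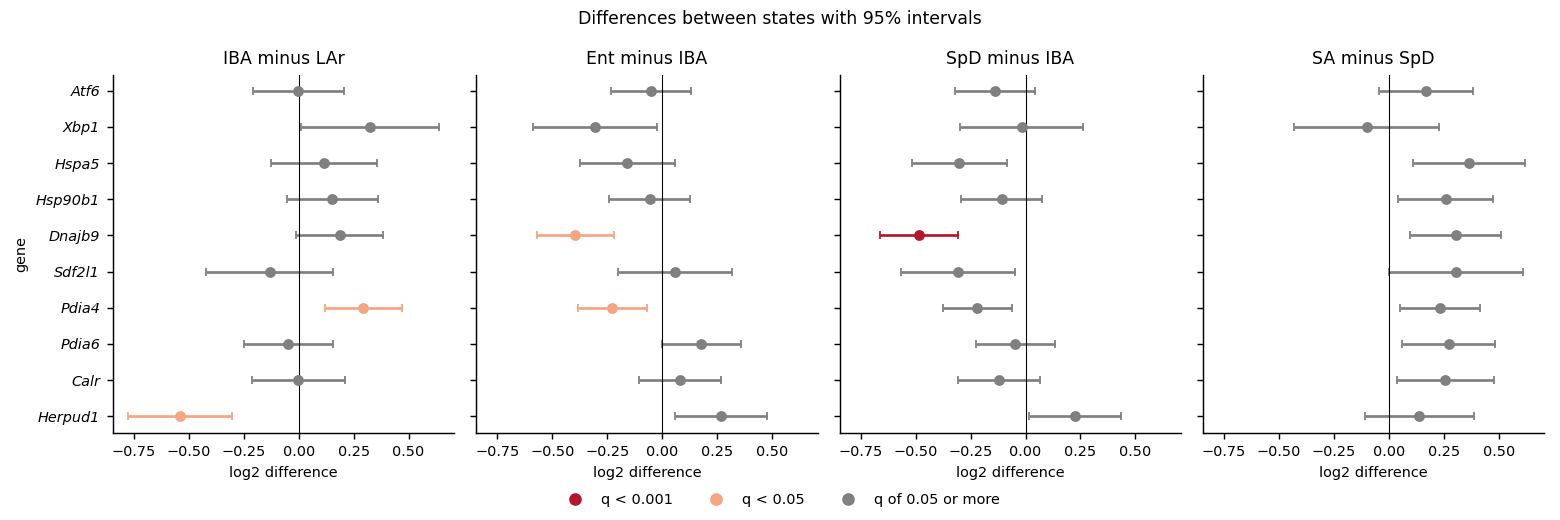
Log2 difference between states (first minus second) for each gene in 4 pairs, with 95% confidence intervals from limma over 29 animals. Points are colored by q, red below 0.001, light orange below 0.05, and gray otherwise. Dnajb9 is red at -0.48 in SpD minus IBA, and 9 of the 10 points lie right of 0 in SA minus SpD.

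The 2 warm states outside the torpor cycle, SA and SpD, differed in the sign shared by most of these genes. For 9 of the 10 the level was higher in SA, Xbp1 being the exception, with a median difference of 0.26 against -0.01 for all genes. None reached q below 0.05 in limma (10.5% of all genes did), although 7 of 10 had an unadjusted p below 0.05, as had 3741 of all 12863 genes. Hspa5 and Dnajb9 were without overlap in this direction, against 4.04% of all genes. The genes were measured in the same animals and are not independent counts of the difference. The median was 0.18 without SpD animal K130, 0.35 without SpD animal K84, and 0.18 with all 31 animals. In the other lists the difference was positive for 11 of 12 other ER chaperones and cochaperones (median 0.23). It was positive for 12 of 12 other disulfide isomerases and oxidases (0.18) and 14 of 16 translocation genes (0.17). So it was for 13 of 17 degradation genes (0.09) and 6 of 11 genes for sensors and their processing (0.01). Outside the ER it was positive for 13 of 15 cytosolic heat shock chaperones (0.23) and 4 of 9 PERK branch outputs (-0.05). The heat shock list also holds the mitochondrial Hspd1 and Hspe1. In the same comparison 2 of 21 cell type markers differed at q below 0.05, the plasma cell marker Jchain and the proximal tubule marker Slc27a2, both higher in SA, and the part of these cells in the shift was not tested.

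Other genes of the ER folding and quality control system differed little between states, with list medians of 0.20 to 0.30 for the difference between extreme state means. Among 11 genes for sensors and their processing 2 reached q below 0.05 across states, among 12 other chaperones and cochaperones 5, among 12 disulfide isomerases and oxidases 4, among 17 degradation genes 5, and among 16 translocation genes 4, against 46.1% of all genes. Edem3, a mannosidase-like protein that marks glycoproteins for degradation, was the only DE gene in these 5 lists (limma q = 2.94e-05), with state means from 10.28 in LAr to 10.87 in SA.

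Downstream of PERK and ATF4 the values were as follows, for description beside the 10 genes. Of 9 measured PERK branch outputs, 6 were DE across states and 8 reached q below 0.05 (4 and 7 with all 31 animals), with a median difference of 0.72 between the highest and lowest state mean against 0.31 for the 10 genes. Ppp1r15a, which restores translation by promoting dephosphorylation of eIF2 alpha, was higher in LAr than in EAr by 1.49 ± 0.13 (SE), and Atf3 by 1.92 ± 0.19. Ddit3, encoding CHOP, was higher by 0.71 (limma q = 0.000215), whereas none of the 10 genes described here had q below 0.05 in that pair. Ddit4, an inhibitor of mTORC1 signaling, was lowest in EAr, at 8.89, and lower there than in SA by 1.11 (limma q = 3.78e-06). Many of these genes also answer to stress signals other than PERK.

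The list of cytosolic heat shock chaperones serves the cytosol and not the ER, apart from Hspd1 and Hspe1, which serve mitochondria. Across states 6 of the 15 were DE and 13 reached q below 0.05 (0 and 9 with all 31 animals). The median difference between extreme state means was 0.48. Hspd1 was among the 6 DE genes (limma q = 0.000563) and Hspe1 among the 13 (q = 0.00675). The lowest q values were those of Hsph1, Hspa8, Chordc1, and Dnaja1, and all 4 had their highest mean in SA and were lower in LAr than in SA. In Hsph1 the level was lower in LAr than in SA by 1.23 ± 0.19 (SE; limma q = 5.09e-05), and in Hspa8 by 0.74 ± 0.11 (q = 4.12e-05), whereas Hspa5, the ER counterpart of Hspa8, had state means of 13.87 in LAr and 14.05 in SA.

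**Figure D3:**
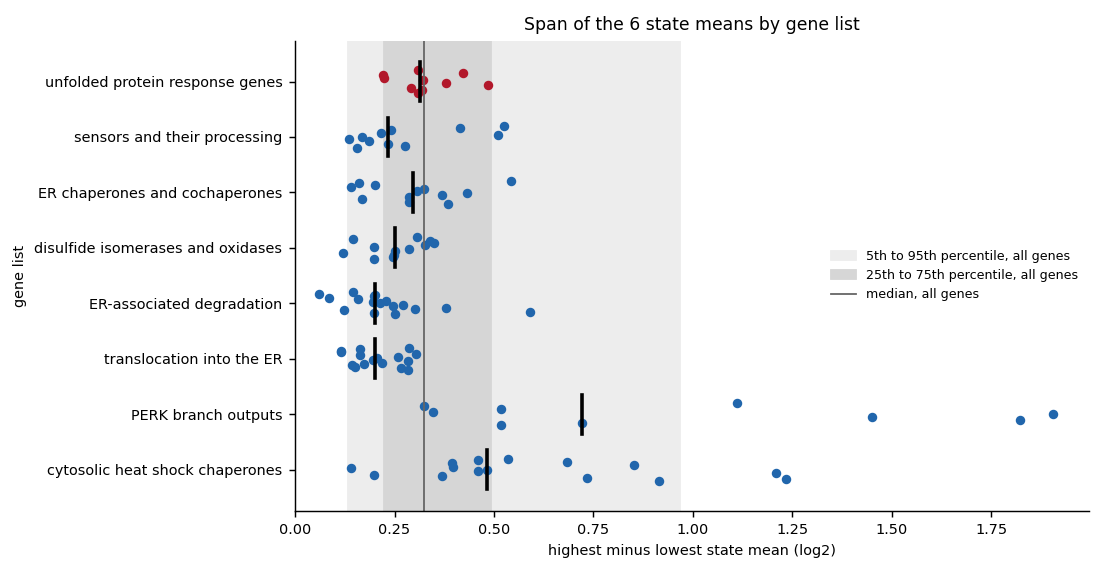
Difference between the highest and lowest of the 6 state means (log2 scale, 29 animals) for each gene of 8 lists, with black bars for the list median and gray bands for all 12863 genes. The 10 unfolded protein response genes (red) lie between 0.22 and 0.48, near the median of all genes, 0.32, and the PERK branch outputs have a list median of 0.72.

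Levels of the 10 genes were also compared with each other animal by animal. Over 29 animals and 45 gene pairs, 12 pairs were positively and 1 negatively correlated at q below 0.05 (permutation test of Pearson's r with 100000 resamples, 2-sided, Benjamini-Hochberg over 45). The weakest of these had an r of 0.46 and -0.50, values that 8.49% and 5.56% of all gene pairs in the table reached. For Hspa5 and Pdia4, r was 0.76 and Spearman's rho 0.79, for Hsp90b1 and Pdia6 0.77 and 0.76, and for Hsp90b1 and Calr 0.75 and 0.66. All 3 of these pairs had q below 0.01 for both coefficients, and r stayed between 0.64 and 0.78 without the 2 animals farthest from the median of the first gene. Within experiment 1 (n = 9) the 3 values of r were 0.94, 0.61, and 0.86, and within experiment 2 (n = 20) 0.66, 0.90, and 0.72. After the state, sex, and experiment terms were removed they were 0.76, 0.86, and 0.78. The 6 genes Hspa5, Hsp90b1, Sdf2l1, Pdia4, Pdia6, and Calr had a median r of 0.64 among themselves, positive in 15 of 15 pairs. This set was picked by hand and not by a test, and Xbp1, Atf6, and Herpud1 were left out of it. The cochaperone Dnajb9, also left out of this set, had r with the 6 from -0.05 (Pdia6) to 0.43 (Hspa5). The median r and the share of positive pairs to be met in sets of 6 drawn from all genes were not computed. These coefficients share libraries and normalization between the genes.

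Herpud1 was not in that set. Its r was negative with 8 of the 9 other genes, and with Pdia4 it was -0.50 (rho = -0.57; permutation q = 0.0200 and q = 0.006), -0.59 within experiment 1 and -0.49 within experiment 2. The r of Herpud1 with Pdia4 was -0.36 after the state, sex, and experiment terms were removed. Without the 2 animals farthest from the median of Pdia4 it was -0.44. Xbp1 went with Pdia4 (r = 0.58, rho = 0.66; permutation q = 0.00405 and q = 0.00157) and had a median r of -0.01 over all 9 others. With Hspa5 and Hsp90b1 its r was 0.30 and 0.35 (permutation q = 0.219 and q = 0.137), but rho was 0.51 and 0.50 (q = 0.0186 and q = 0.0226), and r was 0.51 and 0.66 without the 2 animals farthest from the median of Xbp1. The r of Xbp1 with Hspa5 and Hsp90b1 was 0.80 and 0.59 within experiment 1, but 0.02 and 0.23 within experiment 2. Dnajb9 and Atf6 entered none of the 13 pairs. The genes outside the 10 most like their standardized mean over 29 animals were Derl3 (r = 0.80), a channel component of ER-associated degradation, Odc1 (0.74), the enzyme that begins polyamine synthesis, Manf (0.72) and Creld2 (0.67), both ER-resident proteins secreted upon ER stress, and Jpt1 (0.66). The genes most like Hspa5 were Pdia4 (0.76), Farsb (0.74), a subunit of phenylalanyl-tRNA synthetase, and Manf (0.66). Those most like Xbp1 were Tdg (0.84), Hnrnph1 (0.84), and Epha2 (0.84). These were picked as the highest of all named genes and carry no test.

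K113, the LAr animal kept apart, had high levels of most of these genes. It lay above all 5 other LAr animals for 9 of the 10 genes, where 35.6% of all genes did so and 37.2% lay below, and only Atf6, at 7.14, was within their range. Pdia4 measured 12.35 in K113 against 11.29 ± 0.12 (SD, n = 5), Hspa5 14.65 against 13.87 ± 0.21, Xbp1 11.995 against 11.28 ± 0.09, and Dnajb9 10.95 against 10.49 ± 0.04. The first 3 were the highest values of all 31 animals. The difference from the other LAr animals ran from 1.05 for Pdia4 to 0.15 for Herpud1 and 0.11 for Sdf2l1, whose value, 10.081, was barely above the highest of the others, 10.079. In the other ER lists 4 of 11 sensor genes, 3 of 12 chaperones, 4 of 12 disulfide isomerases and oxidases, 7 of 17 degradation genes, and 5 of 16 translocation genes lay above the LAr range, whereas 7 of 9 PERK branch outputs and 10 of 15 cytosolic heat shock chaperones did. K113 also held more of the inner medulla marker Slc14a2, 12.87 against 6.52, and of Aqp2, 13.69 against 12.18. It held less of Lrp2, 14.51 against 15.67, and of the other principal cell marker, Hsd11b2, 14.44 against 15.04. The plasma cell markers Jchain, at 8.31, and Mzb1, at 6.01, were within and below the LAr range.

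K137, the SA animal kept apart, had low levels of most of the 10 genes. It lay below all 4 other SA animals for 7 of the 10, where 29.5% of all genes did so, and above them for Xbp1 and Pdia4, where 33.9% did so. Of the PERK branch outputs 7 of 9 lay above the SA range in K137, as 7 of 9 lay above the LAr range in K113, and of the cytosolic heat shock chaperones 5 of 15 lay above and 7 below. Sdf2l1 measured 9.31 in K137 against 9.83 ± 0.32 (SD, n = 4), Hspa5 13.61 against 14.05 ± 0.10, and Calr 13.80 against 14.20 ± 0.22, whereas Pdia4 measured 11.88 against 11.60 ± 0.10. K130, a SpD animal that remained in the comparisons, was the lowest of all 31 for Sdf2l1 (9.20) and Calr (13.68). It lay above the other SpD animals for 1 of the 10 genes, Xbp1 (11.97), and below them for 3. Of all genes, 32.7% lay above and 28.4% below in K130. All 3 animals had Slc14a2 and Aqp2 above and Lrp2 and Slc12a3 below the range of their state, with Slc14a2 at 13.51 in K137 and 12.99 in K130. Hsd11b2, the other principal cell marker beside Aqp2, was below that range in all 3 animals. Xbp1 was the gene of the 10 that was above the range of the state in all 3. The share of all genes above in all 3 was not computed. The part of regional kidney makeup in these levels was not tested.

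**Figure D4:**
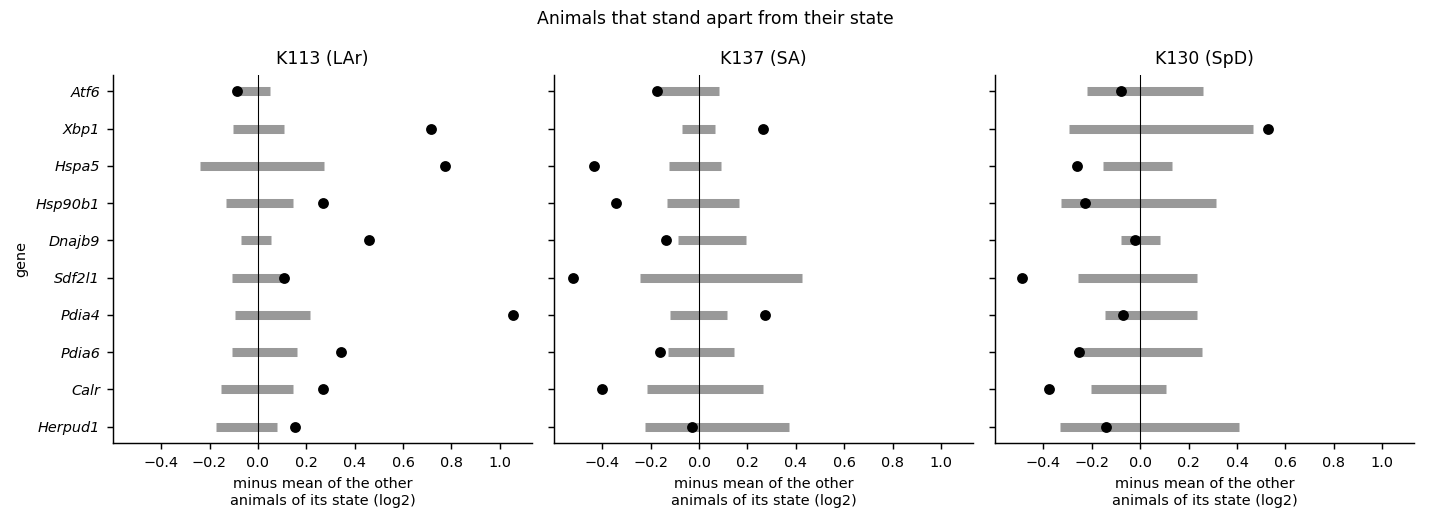
Level of each gene in K113 (LAr), K137 (SA), and K130 (SpD) minus the mean of the other animals of the same state (black points, log2 scale), with gray bars for the range of those other animals (5, 4, and 4). K113 lies right of the bar for 9 of the 10 genes, by 1.05 from the mean for Pdia4, and K137 lies left of the bar for 7.

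In limma no term for sex reached q below 0.05 in the 10 genes. The sex differences lay between -0.11 (Pdia6, lower in males) and 0.09 (Atf6, higher in males). The share of all genes with a sex term below 0.05 was not computed. No state by sex interaction reached q below 0.05 either. Of all 12863 genes only 1 did, so its absence in these 10 says little about whether the sexes differ.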

How the data were processed

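RNA-seq was made from kidneys of 31 ground squirrels. According to the study's methods and the labels, the authors selected poly(A) RNA, used cutadapt for trimming and hisat2 to discard mitochondrial reads, and ran Salmon against HiC_Itri_2 transcripts (versions not given in the sources used here), then summarized to genes, filtered low genes, applied the rlog transform of DESeq2, and used limma to take out the difference between library kits. The deposited values are batch-corrected rlog on the log2 scale. Counts and depth were not used here, so errors reflect only variation among animals.

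Here all 12863 genes were fitted in limma 3.58.1 (R 4.3.3) with state, sex, and experiment as terms and an intensity trend, on 29 animals in a joint fit. P values were adjusted by Benjamini-Hochberg over all genes within each contrast. Alternatives changed the animals, covariates, variance model, experiment, filter, centring, and threshold. The script was tested on simulated data. Replicates are separate animals. Groups follow the labels, with the animal number as replicate, and columns were matched by name. Named genes are the 10, in the other lists the 4 lowest q at most among DE genes, and the genes most like the mean, Hspa5, and Xbp1. Hspd1 and Hspe1 are named for their place in the cell. The genes and lists were chosen with earlier results of these data known. Trib3 and Cd79b were not analysed here, and the row of highest mean was taken where a symbol had several. No positions or sequences are given. Figures were drawn with matplotlib 3.10.9.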

Additional observations from a re-analysis of the deposited data

Results flagged for a closer look

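In 60 groups of 5 or 6 animals (10 genes in 6 states, all 31 animals included), 6 had an animal far from the others by Dixon's test. About 1 in 20 independent groups would be flagged by chance. The groups here share animals, and K113 had already been set apart, so the count of 6 cannot be held against that rate. Of the 6 flagged, 3 are K113 in LAr, with Xbp1 at 11.995 (others 11.18 to 11.39), Dnajb9 at 10.95 (10.42 to 10.54), and Pdia4 at 12.35 (11.20 to 11.51). The rest are Hspa5 in EAr animal K154 at 13.51 (13.85 to 13.91), Hsp90b1 in Ent animal K64 at 14.08 (13.86 to 13.92), and Calr in IBA animal K104 at 13.98 (14.12 to 14.14).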

How the results depend on the processing

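Each count of DE genes among the 10 was recomputed under the alternatives. With all 31 animals, in experiment 2 alone, and with only the 2 groups compared, the SpD/IBA count went from 1 to 0. Across states the count went from 0 to 1 with animal weights and in experiment 2 alone (where Xbp1 was called), to 3 at q below 0.05, and to 2 at q below 0.01. Ent/IBA and IBA/LAr each went from 0 to 1 with animal weights, 2 at q below 0.05, and 1 at q below 0.01. IBA/SA and EAr/IBA went from 0 to 1 at q below 0.05, and hibernation against the active season from 0 to 1 in experiment 2 alone and at q below 0.05. Leaving out 1 animal gave 0 to 1 across states (1 without IBA animal K104) and 0 to 1 in SpD/IBA (0 for 13 of 29 animals), and 0 to 0 in the other 8 comparisons. No difference changed direction while called. The cause of these changes was not tested. No paired analysis was possible because no animal number is shared between states. The values give no depth, so counting error is unknown, and the small groups limit precision to 95% intervals of up to ± 0.33 on the log2 scale.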
